A study of Homo sapiens with 72 samples.

Results

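The mRNAs of the cytosolic ribosomal proteins were followed in A375, a long-established line of human melanoma cells. The members were the rows of the count table named RPL or RPS with a number (with or without a final A or X), together with RPLP0, RPLP1, RPLP2, RPSA and FAU, which gave 78 genes of 44659 in the table. Of these, 46 encode proteins of the large ribosomal subunit and 32 proteins of the small subunit. The rule used gene names and no measured level.

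Each ribosome holds a single copy of most of these proteins, and their mRNAs are among the most abundant and longest-lived of a growing cell. Most begin with a C followed by an unbroken run of C and T (U in the RNA), the 5′ terminal oligopyrimidine (TOP) tract, through which the mTOR pathway and the protein LARP1 set their translation and storage. Several members also act outside the ribosome: free RPL5 and RPL11 bind MDM2 and so act on p53, and RPS27A and FAU are made as fusions to ubiquitin and to a ubiquitin-like protein.

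Decay was followed in 72 libraries of cytoplasmic RNA by QuantSeq, which reads the 3′ end of polyadenylated RNA. In the siRNA experiment, cells received a control siRNA (siGL2) or a pool of siRNAs against CTU2 (siCTU2) for 42 h. CTU2 is part of the enzyme that thiolates the tRNAs reading the codons AAA, GAA and CAA. In the medium experiment, cells were kept for 18 h in medium with glutamine (pQ) or without it (mQ). All groups then received triptolide (25 µM), which blocks transcription, either alone (T arm) or together with the translation inhibitor cycloheximide at 100 µg/ml (TCHX arm), and were harvested at 0, 3 and 5 h. Every combination had 3 replicates, numbered 1 to 3. No separate cultures were stated for them, so that the p-values measure the spread between these samples. The model is 1 cell line with a partial knock-down, and 3′ counts do not separate the spliced forms of a gene.

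Depth ranged from 5987692 to 15534331 counts a library. Of 9 melanoma markers, 8 exceeded 1 CPM (counts scaled to a common library total) in some T library at 0 h, with a summed level of 856 to 1267 CPM, led by SOX10 and S100B, whereas the pigment genes MLANA and TYR stayed at or near 0. The 8 markers of keratinocytes, fibroblasts and blood cells summed to at most 1.79 CPM. CTU2 measured 17.5 to 35.01 CPM in the siGL2 libraries and 0.133 to 2.95 CPM in 17 of the 18 siCTU2 libraries. The exception, at 10.4 CPM, was the library labelled replicate 3 of siCTU2 TCHX at 5 h.

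Some libraries stood apart in the members themselves. In 6 of the 8 libraries of replicate 3 at 5 h (series R306), 13 members were at least 2-fold below both other replicates. These 8 libraries are described on their own at the end and were left out of the time-course fits. They did take part in the choice of the stable genes that set the scale of those fits. The same 13 members were also low, to a smaller degree, in mQ T 0 h replicate 2 and siCTU2 TCHX 5 h replicate 2. The main results that rest on either library are given with and without it.

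The annotated starts of the genes show the TOP letters directly. A start was available in RefSeq (GRCh38.p14) for 63 of the 78 members. In 47 of them (74.6%) at least 1 annotated start was a C followed by at least 4 C or T on the coding strand, against 7.42% of 9755 genes tested at 0 h and 5.14% of 27305 genes with a start window. Moving the start by up to 5 bases in either direction gave 85.7%, 29.4% and 25.2%. Each line below runs 5′ to 3′ on the coding strand from 10 bases before the start to 20 bases within the transcript, with the run of C and T at the start in capitals. Shown are 5 members that moved at 0 h or carry the highest levels, and then 3 with no such run at the printed start.

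RPS12, chr6:132814559-132814588, plus strand: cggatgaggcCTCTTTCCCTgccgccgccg
RPL36, chr19:5690285-5690314, plus strand: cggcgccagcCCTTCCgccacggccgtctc
RPS27A, chr2:55232678-55232707, plus strand: ggcgttcttcCTTTTCgatccgccatctgc
RPLP1, chr15:69452808-69452837, plus strand: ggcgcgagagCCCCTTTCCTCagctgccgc
RPL11, chr1:23691796-23691825, plus strand: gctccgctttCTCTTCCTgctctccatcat
RPS26, chr12:56041908-56041937, plus strand: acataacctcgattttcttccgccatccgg
RPL6, chr12:112409266-112409295, minus strand: gacggcgcgtgcactgtgttcctggtcctg
RPL10A, chr6:35468391-35468420, plus strand: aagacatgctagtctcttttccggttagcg

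A missing run says only that these letters were not at this annotated position. In RPS26 and RPL10A a stretch of C and T began a few bases downstream of it.

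The coding sequences were short and rich in codons for basic residues. The median member had 151.5 codons (25 in RPL41 to 427 in RPL4), against 473 over 10952 genes tested at 0 h. Lysine took 12.2% of the codons and arginine 9.35%, against 5.82% and 5.56%. AAA, GAA and CAA together took 6.65% of codons against 6.59% over all genes, and AAA made up 33.3% of the lysine codons in members and 42.9% over all genes. The 3 codons ranged from 0.34% in RPS2 to 14.8% in RPL22.

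Together the members held more than 10% of the counts of every library. At 0 h in the T arm they took 12.8% ± 0.19 of all counts in siGL2, 13.3% ± 0.42 in siCTU2, 13.01% ± 0.19 in pQ and 13.3% ± 0.17 in mQ (mean ± SD, n = 3). The conditions thus lay within 1 percentage point of each other.

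The share rose in the T arm with time. At 3 h it was 13.8% ± 0.22, 14.3% ± 0.68, 14.2% ± 0.15 and 15.3% ± 0.26 in the same order of conditions (n = 3), and the 3 h libraries lay above the 0 h libraries of their condition in all but siCTU2, where 1 library overlapped. At 5 h, in replicates 1 and 2, it was 15.1%, 15.7%, 15.6% and 16.7%. With cycloheximide it stayed at 13.04%, 13.02%, 13.7% and 13.7% at 3 h, close to the 0 h means of that arm (12.9%, 12.9%, 13.6% and 13.5%). By 5 h, in replicates 1 and 2, the share with cycloheximide was 14.2%, 13.6%, 14.03% and 14.6%. These means lay above the 0 h means of that arm and below the T arm at 5 h. In pQ the rise was smaller than the 0 h SD of 0.76.

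**Figure D1:**
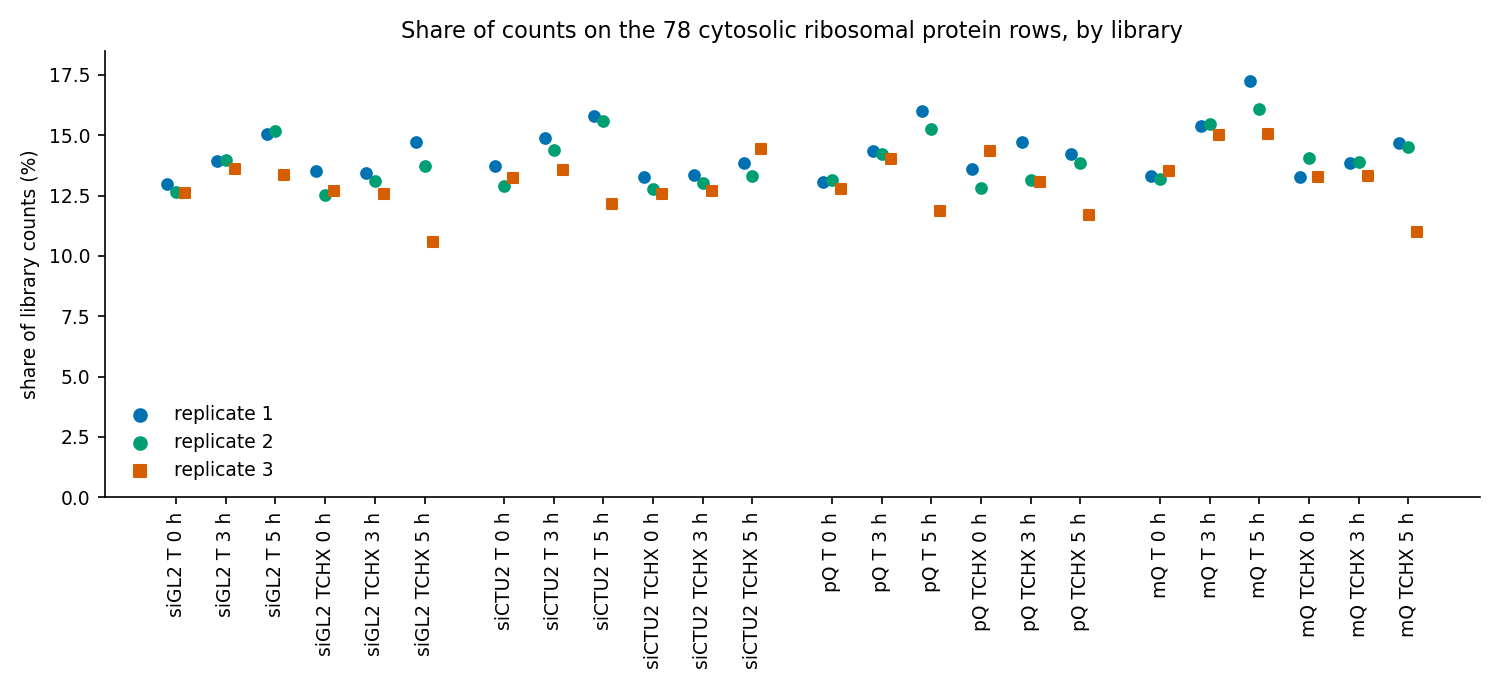
Percent of all counts on the 78 member rows in each of the 72 libraries, by group on the horizontal axis, with replicates 1 and 2 as circles and replicate 3 as squares. In the T arm the share climbs from 12.6 to 13.7% at 0 h to between 15.1 and 17.2% at 5 h in replicates 1 and 2, while 6 of the 8 squares at 5 h lie at 10.6 to 13.3%.

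Individual members spanned a wide range of levels. Since QuantSeq takes about 1 fragment per molecule near the 3′ end, CPM was not divided by length. At 0 h in the T arm RPS27A was highest, with a mean of 8265 CPM over the 12 libraries (7071 to 10193), followed by RPS29 at 5597, RPLP1 at 4799, RPL37A at 4569 and RPS28 at 4031 CPM. The ranges of RPS29, RPLP1, RPL37A and RPS28 overlapped. RPLP1, with RPLP0 and RPLP2, forms the stalk that recruits elongation factors.

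At the other end, 6 members were under 10 CPM: RPS9, RPS18, RPS3A, RPS25, RPL7A and RPS2. Near-identical copies of a gene can divide or remove its reads in counting, and 23 members had further copy names in the table, so that these 6 levels are uncertain. In the 72 members at 10 CPM or more, copy names held at most 2.42% of the member's own CPM, and 69 of these members exceeded 100 CPM and 48 exceeded 1000 CPM.

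The first comparison asks how loss of CTU2 changed member levels before any decay, in T libraries at 0 h. RPS20, a protein of the head of the small subunit, fell to about 1 copy for every 2 in the control, and RPS12 and RPL36 fell less. The 5S RNP proteins RPL5 and RPL11, the stalk proteins RPLP0 and RPLP1, and RPS27A rose by small amounts. Of the 72 members tested, 20 were higher and 5 lower in siCTU2 at an adjusted p under 0.05 (edgeR quasi-likelihood test with Benjamini-Hochberg adjustment over 12292 genes). Over all genes tested 17.8% were called higher and 18.2% lower. The median difference was 0.07 on the log2 scale over the members and 0.00 over all genes. The count of 20 fell to 11 without siGL2 replicate 2 or replicate 3, to 12 without siCTU2 replicate 1 and to 13 without siGL2 replicate 1, and the count of 5 to 3 without siGL2 replicate 1 or replicate 2. In bulk RNA, fewer cells with an mRNA and fewer molecules per cell cannot be told apart.

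RPS20 measured 1822, 1743 and 1786 CPM in the siCTU2 replicates and 3721, 3643 and 3625 CPM in siGL2. No siCTU2 library came near the control libraries. The log2 difference was -1.04 ± 0.05 (SE, adjusted p = 1.77e-11, edgeR), which left 48.6% of the control level. In the TCHX arm at 0 h, a separate set of libraries, the difference was -1.09 (adjusted p = 7.96e-11, edgeR).

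RPS20 kept this separation through the whole time course. Over all arms and times, 17 siCTU2 libraries ranged from 1656 to 2276 CPM, against 3533 to 4855 CPM in the 18 siGL2 libraries. In the medium experiment it ranged from 3618 to 4678 CPM in mQ and from 3443 to 4497 CPM in pQ. The remaining library, labelled as replicate 3 of siCTU2 TCHX at 5 h and at odds with that label in CTU2, had 2916 CPM of RPS20, between both ranges.

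RPS12, a protein of the small subunit head, had 2185, 1844 and 2138 CPM in siCTU2 and 2969, 2849 and 2908 CPM in siGL2. The groups did not overlap, and the difference was -0.50 ± 0.06 (adjusted p = 3.42e-06, edgeR). RPL36, of the large subunit, had 839, 786 and 750 CPM against 1061, 1015 and 1035 CPM, again without overlap (-0.39 ± 0.06, adjusted p = 4.47e-05, edgeR). The library at odds with its label had 3362 CPM of RPS12 and 1254 CPM of RPL36, while the other 17 siCTU2 libraries reached at most 2341 and 948 CPM.

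RPL10A, of the mobile L1 stalk, and RPL19, which lies at the exit of the peptide tunnel, were the other members called lower, by -0.19 ± 0.06 and -0.16 ± 0.06. All 5 were lower in the TCHX arm as well (RPS12 -0.50, RPL36 -0.35, RPL10A -0.37, RPL19 -0.31), each past the threshold there.

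Among members called higher, RPL6, of the large subunit, had 1110, 1069 and 1131 CPM in siCTU2 and 866, 898 and 860 CPM in siGL2. The difference was 0.33 ± 0.06 (adjusted p = 0.000139, edgeR), but the TCHX arm at 0 h gave 0.02. RPS27A had 10193, 8777 and 9319 CPM against 7805, 7719 and 7589 CPM, also without overlap (0.29 ± 0.05, adjusted p = 0.000184, edgeR). RPL7 rose by 0.28 ± 0.05, and both genes passed in the TCHX arm too (RPS27A 0.19, RPL7 0.24).

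RPL5 had 1658, 1486 and 1534 CPM in siCTU2 and 1319, 1306 and 1302 CPM in siGL2, a difference of 0.25 ± 0.06 (adjusted p = 0.0018, edgeR). RPL11 had 2568, 2319 and 2388 CPM against 2090, 2045 and 2053 CPM (0.23 ± 0.05, adjusted p = 0.0021, edgeR). Both groups of libraries were apart for both genes, yet the TCHX arm gave only 0.09 and 0.12, which missed the threshold. Of the stalk, RPLP1 rose by 0.12 ± 0.04 and RPLP0 by 0.13 ± 0.05 (adjusted p = 0.048 and 0.0495, edgeR), and RPLP2 at 0.08 ± 0.06 did not pass.

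RPSA, the laminin receptor protein of the small subunit, turned sign between the arms, with 0.20 ± 0.06 in the T arm and -0.12 in the TCHX arm. RPS26 (0.29 ± 0.10) passed with libraries that overlapped. In all, the TCHX arm at 0 h gave 7 members higher and 12 lower, where 18.3% and 18.9% of all genes were, against 20 and 5 members in the T arm.

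By position in the ribosome, 12 of 45 large subunit members tested were higher and 3 lower, and 8 and 2 of 27 small subunit members. Both 5S RNP members and 2 of 3 stalk members were higher. Of 3 members with a known spliced form that is degraded (RPL3, RPL10A and RPL12) only RPL10A was called, as lower. Of 7 tunnel exit members RPL19 alone was called, as lower, and of 4 tested members listed for the small subunit head, a list that did not hold RPS20, RPS12 was lower and RPS19 (0.18 ± 0.05) higher.

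**Figure D2:**
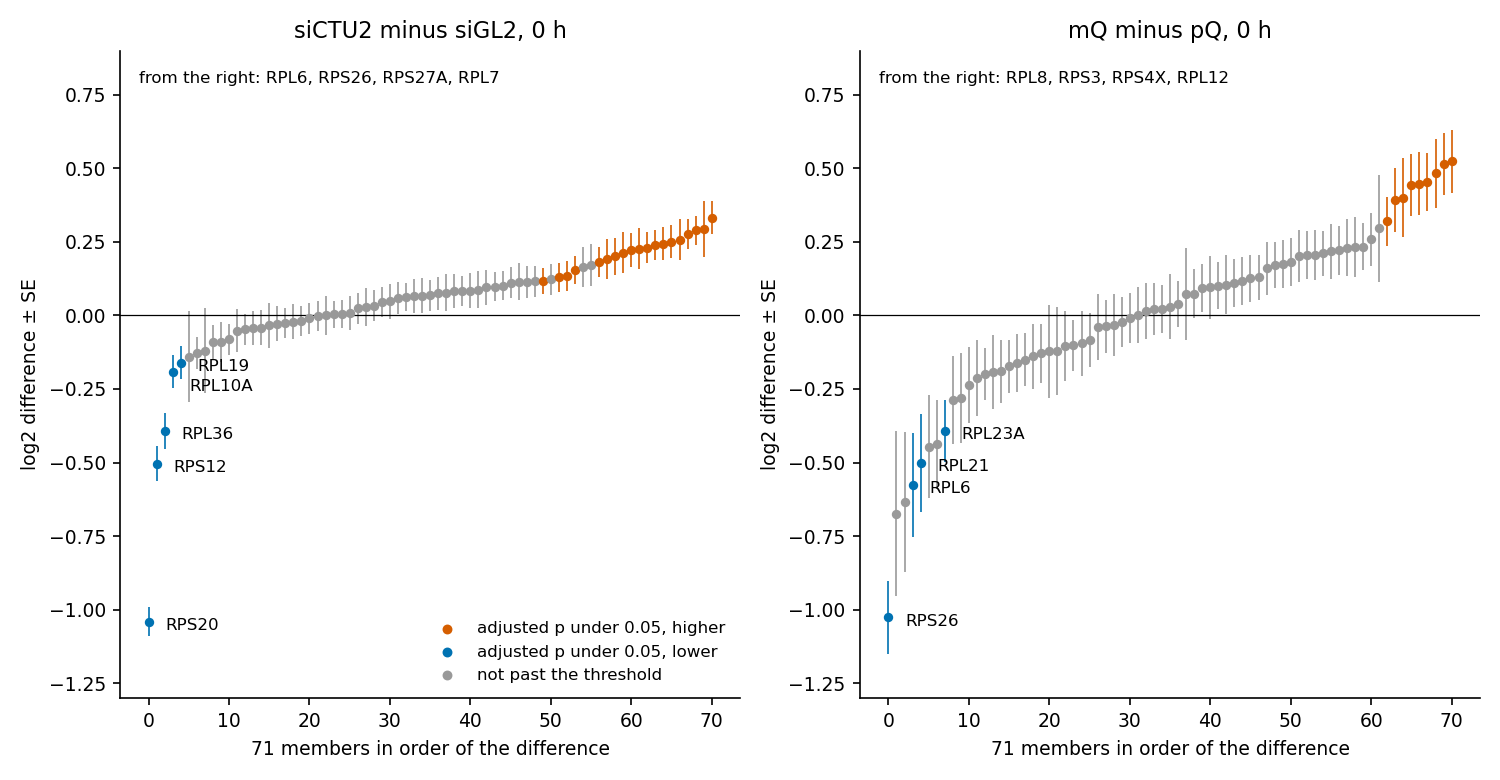
Log2 difference (vertical axis, ± SE) of 71 of the 72 tested members at 0 h in the T arm, in order of size, for siCTU2 minus siGL2 (left) and mQ minus pQ (right), with members past an adjusted p of 0.05 in colour. On the left RPS20 lies alone at -1.04 and most members sit just above 0, and on the right RPS26 lies lowest at -1.03 with wider errors throughout.

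The second comparison asks the same of glutamine. RPS26, which lies at the mRNA exit of the small subunit, fell to about 1 copy for every 2 in control medium, and RPL23A, at the peptide tunnel exit, fell less. RPL8, next to the catalytic centre, RPS3, at the mRNA entry, RPS4X and RPL12 were the members with the largest rises. Of 72 members tested, 10 were called higher and 4 lower in mQ (edgeR), where 12.5% and 12.4% of all 12374 genes were. The median was 0.03 over members and 0.01 over all genes.

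RPS26 had 149, 112 and 151 CPM in mQ and 301, 300 and 270 CPM in pQ. The groups were well apart, with a difference of -1.03 ± 0.12 (adjusted p = 0.00024, edgeR) and 49.1% of the pQ level left. It was -0.90 without mQ replicate 2, and -0.82 in the TCHX arm (adjusted p = 0.0042, edgeR), where it was the only member called.

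RPL23A had 1189, 1175 and 1183 CPM in mQ and 1791, 1683 and 1358 CPM in pQ, without overlap (-0.39 ± 0.11, adjusted p = 0.019, edgeR). RPL6 had 623, 451 and 864 CPM against 1014, 1026 and 957 CPM. RPL21 had 574, 445 and 806 CPM against 887, 921 and 872 CPM. In RPL6 and RPL21 the mQ libraries were widely spread, with replicate 2 lowest, and their differences of -0.58 ± 0.18 and -0.50 ± 0.17 shrank to -0.37 and -0.32 without that replicate, still past the threshold. The TCHX arm gave -0.10 and -0.04.

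RPL8 had 1740, 2012 and 1514 CPM in mQ and 1253, 1259 and 1288 CPM in pQ (0.52 ± 0.11, adjusted p = 0.0049, edgeR). RPS3 had 2841, 3276 and 2581 CPM against 2098, 1943 and 2277 CPM (0.51 ± 0.11, adjusted p = 0.0051, edgeR). Replicate 2 was the highest mQ library for both. RPS4X (0.48), RPL12 (0.45), RPL27A (0.44), RPS10 (0.40), RPS28 (0.39) and RPS12 (0.32) were also called higher.

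Replicate 2 was the highest mQ library in 9 of the 10 members called higher and the lowest in 4 of the 4 called lower (in RPL23A by little), and 3 of those 4 (all but RPL23A) belong to the 13 members that were low in late libraries of replicate 3. Of the 10 called higher, 8 had a higher median in the late libraries of replicate 3. The part of mQ replicate 2 in the result was not tested further than by leaving it out. That gave more calls, 16 members higher and 7 lower, where 13% and 13.3% of all genes were, with RPL8 at 0.42, RPS3 at 0.42, RPS4X at 0.33 and RPL12 at 0.37. Leaving out pQ replicate 1 gave 5 higher and 1 lower, and pQ replicate 2 gave 4 and 1. Lower members numbered 2 without pQ replicate 3, 1 without mQ replicate 1 and 13 without mQ replicate 3. From 4 to 16 members were higher in every fit with 1 replicate left out. Apart from the fit without mQ replicate 2, the matching shares of all genes are not given here. The TCHX arm gave 0 higher and 1 lower, where 3.82% and 2.65% of all genes were. Without pQ replicate 3 of that arm, which had the highest member share of any 0 h library (14.3%), it gave 5 higher and 3 lower, where 10.4% and 9.71% of all genes were, with RPS3 at 0.37, RPS4X at 0.30, RPL12 at 0.27, RPL8 at 0.23 and RPL23A at -0.31 all past the threshold.

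Small subunit members made up 7 of the 10 called higher, of 27 tested, including 3 of the 4 tested from the same list for the head, among them RPS10 and RPS12. The 5S RNP and stalk members did not pass, at -0.01 for RPL5, 0.04 for RPL11, and 0.17, 0.21 and 0.17 for RPLP0, RPLP1 and RPLP2.

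**Figure D3:**
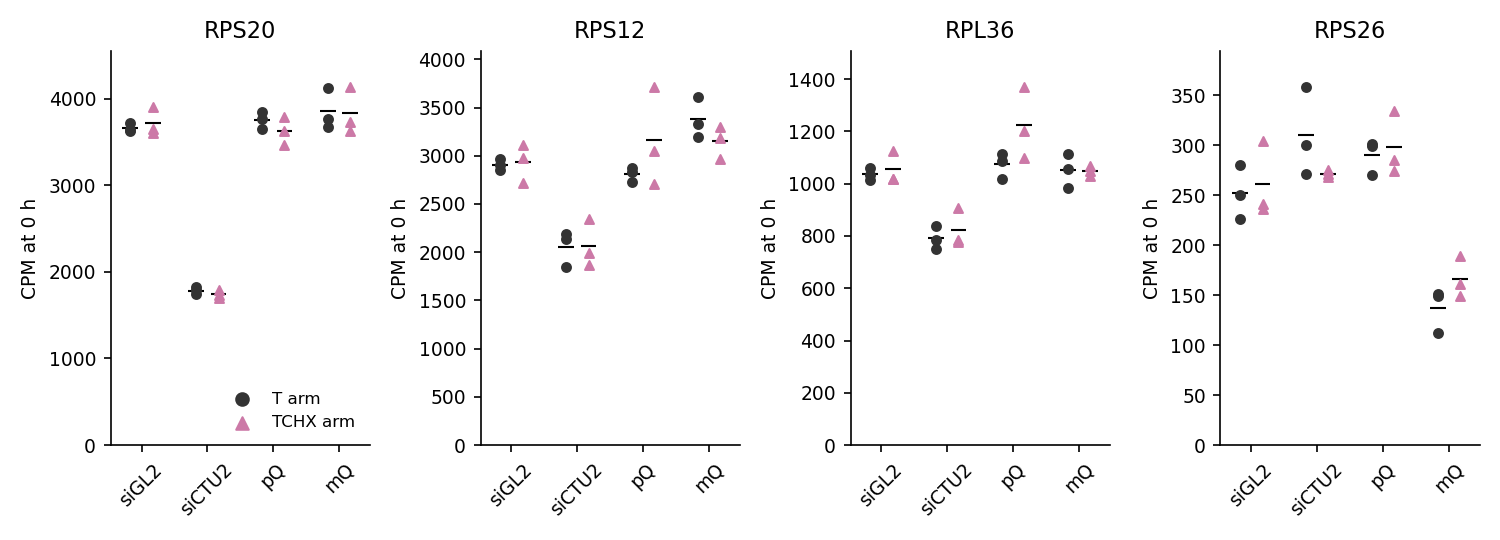
CPM at 0 h (vertical axes from 0) of RPS20, RPS12, RPL36 and RPS26 by condition, with T libraries as circles, TCHX libraries as triangles and group means as bars. In both arms RPS20, RPS12 and RPL36 have lower means in siCTU2 than in siGL2, and RPS26 a lower mean in mQ than in pQ.

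The T arm asks how fast member mRNAs disappear once transcription stops. The answer depends on the scale. Counts were scaled to genes that met the study's rule for stability, with members left out of it. The rule keeps genes whose CPM rose from 0 h to 3 or 5 h in every replicate. A gene of steady CPM therefore comes out lower. On this scale most members were called lower by 3 h, but the median member fell by less than the median gene. The fall thus rests in part on how the scale was chosen. With TMM scaling, which sets the median gene near no change, the median member rose instead. A change of scale moves all genes of a library alike, so that the gap between members and all genes hardly depends on it. Spike-in RNA (ERCC) was added before library preparation and was not used here, so that both scales rest on cellular genes.

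At 3 h against 0 h, 61 of 74 members were lower in siCTU2, 53 of 74 in siGL2, 51 of 73 in mQ and 70 of 73 in pQ, and 0 were higher (edgeR). Over all genes 57.3%, 49.8%, 61.9% and 67.3% were lower, and 1.65%, 1.55%, 1.36% and 1.45% higher. No member reached an unadjusted p under 0.05 for a rise, and DESeq2 also called 0 higher. The median member kept 78% of its 0 h level in siCTU2, 82.5% in siGL2, 75.5% in mQ and 71.5% in pQ, and the median gene 68.4%, 71.9%, 61.0% and 61.8%. In log2 terms members lay above all genes by 0.19, 0.20, 0.31 and 0.21. The median gene stood at -0.55, -0.48, -0.71 and -0.69 on this scale and at -0.00, 0.03, 0.04 and 0.00 with TMM. With TMM members' medians stood at 0.19, 0.24, 0.35 and 0.22, with 29, 38, 56 and 29 of them called higher, where 7.74%, 7.50%, 12.6% and 6.03% of all genes were, and 1, 0, 1 and 0 lower, where 13.7%, 12.1%, 14.7% and 11.6% were. Leaving out 1 replicate lowered the counts on the stable-gene scale by over 1.5 times in 4 cases, to 36 in siCTU2, 17 in siGL2 and 46 in pQ without replicate 1, and to 30 in siGL2 without replicate 3.

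The check on the block of transcription was clear. Short-lived mRNAs (JUN, FOS, MYC, IER2 and MCL1) all fell in every condition, with medians of -3.07, -3.86, -5.19 and -4.39.

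RPL13A, of the large subunit, had 27372, 23291 and 24592 normalised counts at 0 h and 16954, 18447 and 15080 at 3 h in siCTU2. It kept 67.1% and fell by 0.58 on the log2 scale (± 0.10, adjusted p = 1.14e-05, edgeR). In siGL2 it had 23262, 23426 and 21848 at 0 h and 17868, 18471 and 15802 at 3 h, or 76.1%. The libraries of both times were apart in both conditions. With TMM scaling RPL13A was at 0.12 in siGL2.

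RPS12 was the other member among the 3 with the smallest p in both siRNA conditions, at -0.47 ± 0.10 in siCTU2 and -0.46 ± 0.10 in siGL2 (0.08 and 0.06 on the TMM scale). It kept 72.1% and 72.8% of its 0 h level. RPS20, which differed so much at 0 h, kept 78.2% in siCTU2 and 83.9% in siGL2 on the stable-gene scale.

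In mQ the members with the smallest p were RPL27A (-0.67 ± 0.10), RPL8 (-0.62 ± 0.10) and RPS4X (-0.69 ± 0.11), at 0.09, 0.14 and 0.08 with TMM scaling and all called higher in mQ at 0 h. RPL8 had 20750, 25910 and 20885 normalised counts at 0 h and 14151, 15311 and 14490 at 3 h. Without mQ T 0 h replicate 2 the 3 values were -0.56, -0.51 and -0.53, still past the threshold, and 57 members were lower in place of 51. RPL34, RPL4 and RPS7, which belong to the 13 members low in that library, were highest at 0.04, 0.06 and 0.07 with it and at -0.26, -0.13 and -0.27 without it, none past the threshold.

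In pQ the smallest p included those of RPLP0 (-0.51 ± 0.10) and RPL15 (-0.50 ± 0.10), at 0.19 and 0.20 with TMM scaling. The lowest values were those of RPL34 (-0.67), RPL3 (-0.62) and RPL4 (-0.61), at 0.02, 0.08 and 0.09 with TMM scaling. The 3 stalk members, both 5S RNP members, RPS27A and FAU fell in all 4 conditions, from -0.20 (RPLP1 in siCTU2) to -0.58 (RPS27A in mQ), and all stood above 0 on the TMM scale. RPLP1 kept 87.3%, 86.6%, 75.3% and 76.6% in siCTU2, siGL2, mQ and pQ, and RPS27A 70.1%, 76.3%, 67.1% and 70.3%.

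At 5 h, with replicates 1 and 2 only, members stood nearer to their 0 h level on the stable-gene scale than at 3 h with 3 replicates. Transcription was blocked, so that this return is not read as a gain of mRNA, and its cause was not tested. The median member was at 85.1% in siCTU2, 93.8% in siGL2, 88.2% in mQ and 90.2% in pQ, against 61.6%, 66.5%, 58.8% and 65.1% for the median gene. The gap to all genes thus grew to 0.47, 0.50, 0.59 and 0.47. Called lower were 23, 2, 23 and 1 members, where 58.6%, 48.4%, 57.4% and 49.9% of all genes were called in either direction. These shares join rises and falls, so they do not match a count of lower members exactly. The 2 in siGL2 were RPL13A (-0.34) and RPL26 (-0.27), and the 1 in pQ was RPL17 (-0.52), and without mQ T 0 h replicate 2 the count in mQ was 14. Called higher were 0, 1, 0 and 1 members. With TMM scaling 64, 69, 64 and 66 members were higher and 0 lower, where 15.0%, 16.9%, 18.9% and 12.1% of all genes were higher.

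**Figure D4:**
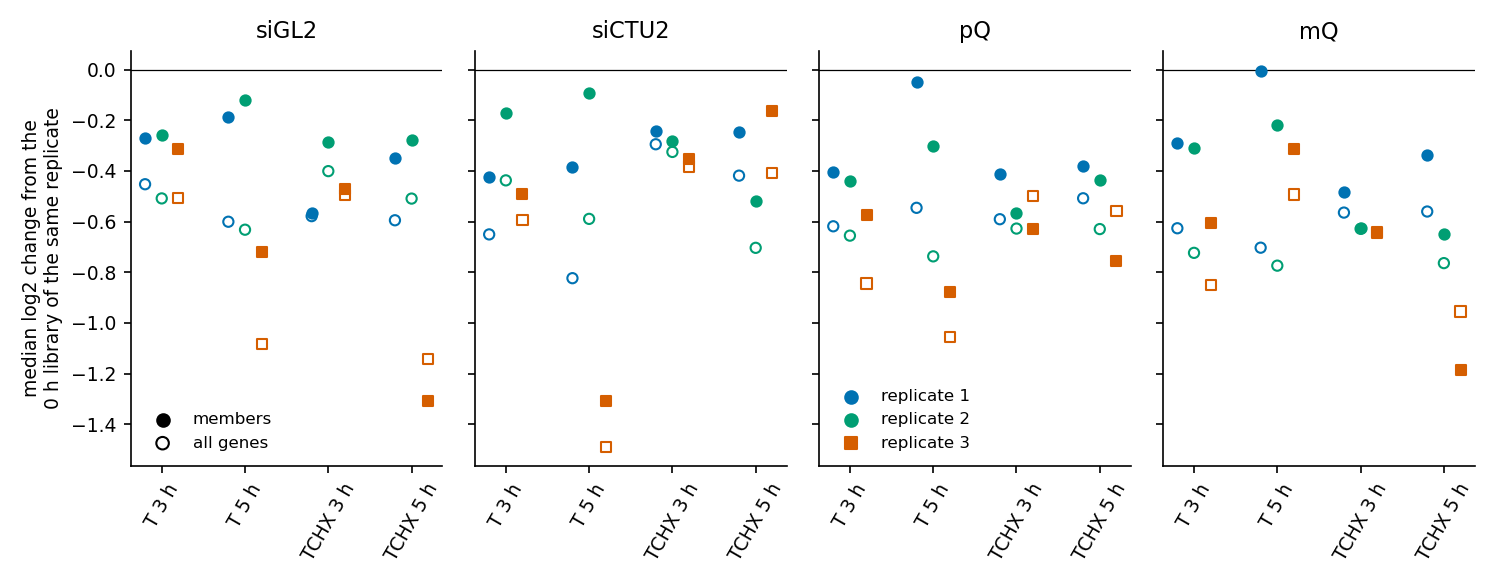
Median log2 change of members (filled) and of all genes (open) from the 0 h library of the same arm and replicate, on the stable-gene scale, for each library at 3 and 5 h, by condition, with replicate 3 as squares. In every T library members lie above all genes, by 0.10 to 0.70, and with cycloheximide at 3 h both lie within 0.18 of each other.

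Whether decay of members differed between conditions was tested directly. The change over 3 h in the T arm differed between siCTU2 and siGL2, or between mQ and pQ, for 0 members (edgeR), against 0.688% and 0.0622% of all genes. Without adjustment 1 and 9 members had a p under 0.05, and DESeq2 called 0 in both. The 9 in the medium experiment were split, with 4 higher and 5 lower, among them RPL27A (-0.41 ± 0.14), RPS10 (-0.38 ± 0.16), RPL4 (0.67 ± 0.23) and RPL6 (0.61 ± 0.27). Without mQ T 0 h replicate 2 these 4 values were -0.30, -0.21, 0.49 and 0.41. For RPS20 the difference of siCTU2 from siGL2 in this change was -0.10 ± 0.12, and for RPS12 -0.01 ± 0.14.

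The cycloheximide comparison asks whether decay needed translation, in which case the mRNA would be higher in the TCHX arm. At 3 h no member was higher in any condition (edgeR), while 11.0%, 7.19%, 13.6% and 5.72% of all genes were in siCTU2, siGL2, mQ and pQ. The share of all genes called lower was 0.0895%, 0.317%, 0.111% and 0.138%. Of the members, 0, 0, 0 and 1 were called lower. At an unadjusted p under 0.05 there were 0, 3, 0 and 5 members lower and 0, 0, 1 and 0 higher, and DESeq2 called 0, 0, 0 and 1 lower and 0 higher.

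The difference was below 0 in 62 of 74 members in siCTU2, 73 of 74 in siGL2, 68 of 73 in mQ and 55 of 73 in pQ. The median member was at -0.09, -0.11, -0.10 and -0.07, while the median gene was at 0.13, 0.04, 0.16 and 0.05. Members share their libraries and scale, and the SD of the library medians (0.17, 0.16, 0.14 and 0.24) exceeded the size of the members' medians in every condition. A single member had a median SE of 0.10 to 0.12, so that differences of this size were not detectable member by member. After TMM scaling 31, 13, 44 and 8 members were lower, where 1.52%, 1.60%, 3.85% and 0.808% of all genes were. RPLP1 was at -0.14, -0.11, -0.14 and -0.16, RPL11 at -0.10, -0.09, -0.11 and -0.05, and RPS27A at -0.05, -0.04, -0.10 and 0.04, none past the threshold. Of the 5 short-lived mRNAs 4 to 5 were higher with cycloheximide in each condition, by a median of at least 2.50.

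At 5 h, with replicates 1 and 2, 22 members were lower with cycloheximide in siCTU2 and 1 in each other condition. Over all genes 14.8%, 13.0%, 16.8% and 10.6% were called in either direction. These shares join rises and falls, so they are no like base for a count of lower members. At 3 h in siCTU2, 11.0% of all genes were higher and 0.0895% lower. The siCTU2 libraries with cycloheximide were far apart. RPS15A, with the smallest p, had 9183 and 5521 normalised counts with cycloheximide and 11176 and 11677 without it, and replicate 2 was the low value. Without that library, which leaves 1 library with cycloheximide and takes the spread from the other groups, 0 members were called lower, and the median moved from -0.28 to -0.19.

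The size of the cycloheximide effect at 3 h did not differ past the threshold between siCTU2 and siGL2 or between mQ and pQ for any member (edgeR, 0 at an unadjusted p under 0.05 in both, 0 by DESeq2), with 0.0964% and 0.0414% of all genes called. The TDD index of the study, the level with both inhibitors minus that with triptolide alone over the 0 h level, gave the same count of 0 members (linear model with condition, time and replicate, 10 values a gene, Benjamini-Hochberg adjustment), with 0% and 0.00805% of all genes called and 1 and 4 members at an unadjusted p under 0.05. In the medium experiment these included RPS3, RPS10 and FAU, with indices of -0.08, -0.06 and -0.07 in mQ and -0.13, -0.14 and -0.10 in pQ.

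The 8 libraries of replicate 3 at 5 h split into 6 that lost members and 2 that did not. Members at least 2-fold below both other replicates in CPM numbered 19 in siCTU2 T, 14 in siGL2 T, 22 in siGL2 TCHX, 20 in mQ TCHX, 21 in pQ T and 14 in pQ TCHX, and 0 in siCTU2 TCHX and mQ T. Each count is of 71 or 72 members. Over all genes the share was 13.2%, 11.0%, 13.5%, 13.3%, 12.3% and 8.60% in the 6, and 0.605% and 0.896% in the other pair. In all 6 libraries at once 13 of 71 members were low, and 5.76% of 7030 genes.

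The 13 members included RPL4, RPL6, RPL10A, RPL21 and RPL34 of the large subunit and RPS6, RPS7, RPS15A, RPS21, RPS26, RPS29 and RPSA of the small subunit. They were picked by these values, so that what follows is a description. RPS7 had 122 to 198 CPM in the 6 libraries and 284 to 1366 CPM in the other 66. RPS29, the second most abundant member at 0 h, had 1623 to 2476 CPM against 3715 to 7448 CPM. RPSA had 124 to 225 CPM against 271 to 595 CPM, so that no library of the 66 reached into the low range of these 3.

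Other members moved the opposite way in the same libraries. RPL8 had 2103 to 3208 CPM against 1253 to 2012 CPM, RPL27A 6250 to 7986 CPM against 2775 to 5617 CPM, and RPS4X 3605 to 4571 CPM against 1895 to 3371 CPM. All 3 were also called higher in mQ at 0 h. RPS20 spanned 2276 to 4855 CPM in the 6 libraries, with siCTU2 T lowest.

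The summed CPM of the 13 members, as a percent of that of the 56 members low in none of the 6, places each library on 1 scale. It was 5.78 to 7.60% in the 6 libraries, against a median of 18.1% and a highest value of 20.7% in the other 66. The next lowest were mQ T 0 h replicate 2 at 10.2% and siCTU2 TCHX 5 h replicate 2 at 11.3%, and all other libraries had at least 15.6%.

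The rule that picked the 13 did not use their sequences. Their coding sequences had a median GC content of 48.8% (43.3 to 60.3%) and 176 codons, against 52.4% (41.7 to 62.6%) and 151 codons in the others. Of 11 with an annotated start window, 5 had the pyrimidine run at the start, among them RPL21 and RPSA, and the starts of RPL6, RPL10A and RPS26 printed above had none.

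From their own 0 h library, the median member changed in these 6 by -1.31 (siCTU2 T), -0.72 (siGL2 T), -0.88 (pQ T), -1.31 (siGL2 TCHX), -1.18 (mQ TCHX) and -0.75 (pQ TCHX) on the stable-gene scale. The 5 h libraries of replicates 1 and 2 gave -0.65 to -0.01. The other pair of replicate 3 fell within that range, with -0.31 in mQ T and -0.16 in siCTU2 TCHX. Over all genes that pair still stood apart. At least 2-fold above both other replicates were 1339 of 8703 genes in mQ T and 654 of 8924 in siCTU2 TCHX, against 162 to 413 in the 6. Of the members, 0 and 1 were. With all 36 libraries of an experiment in the fit, 5, 1, 33 and 36 members were lower at 3 h in the T arm of siCTU2, siGL2, mQ and pQ.

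**Figure D5:**
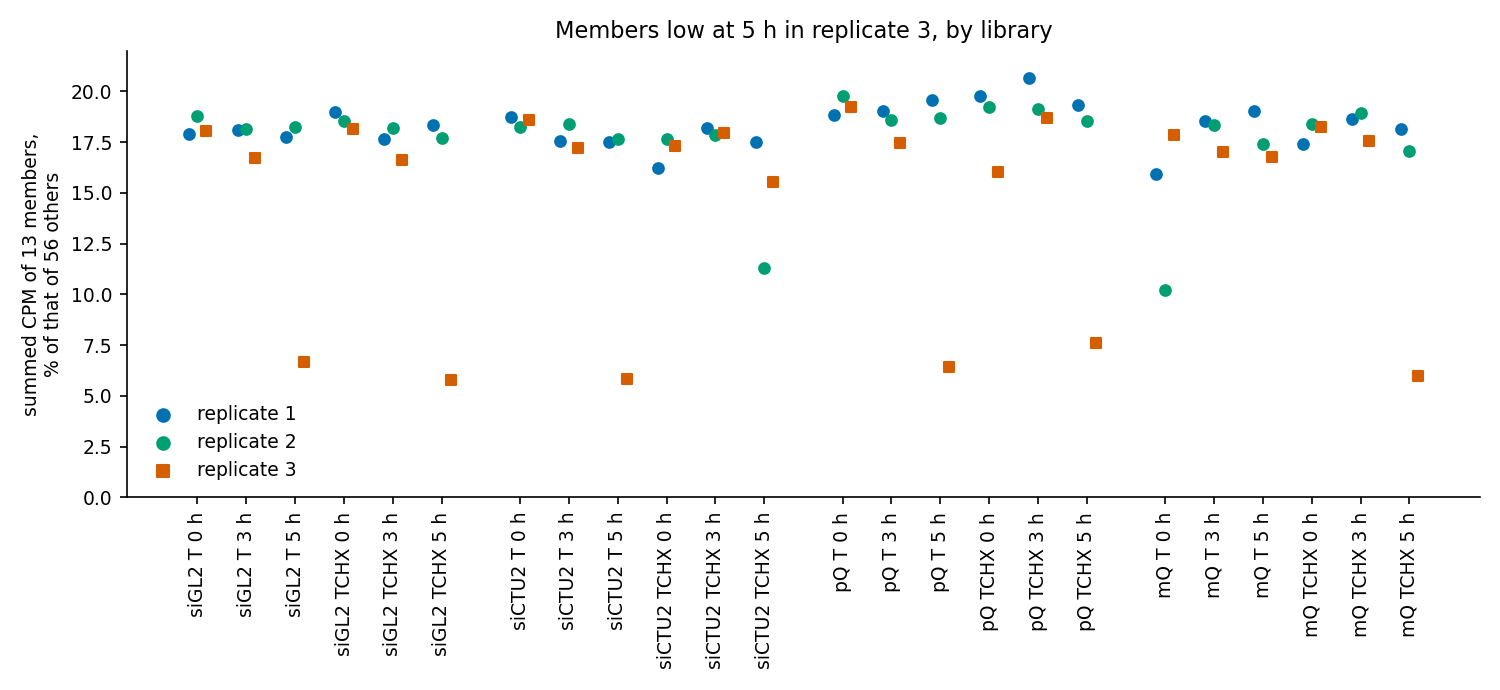
Summed CPM of the 13 members low in late libraries of replicate 3, as a percent of the summed CPM of 56 other members, for each of the 72 libraries by group, with replicate 3 as squares. Of the 72, 6 squares at 5 h lie at 5.78 to 7.60%, 2 replicate 2 libraries at 10.2 and 11.3%, and the rest at 15.6% or more.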

How the data were processed

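The authors deposited raw read counts per gene from QuantSeq 3′ libraries. Per the submitters' processing notes and the study's methods, forward reads were trimmed with fastp 0.20.1, mapped to GRCh38.p13 with HISAT2 2.2.1 and counted on exons with htseq-count (HTSeq 0.13.5). No molecular identifiers were stated, so counts may hold PCR copies. Groups and replicate numbers came from sample titles. Some members were counted but are not reported here by name. The members and gene lists were chosen with earlier results of these data known. CPM are counts divided by the library total and scaled to a common size.

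At 0 h, 6 libraries were fitted with edgeR 4.0.16 (R 4.3.3, quasi-likelihood test, no replicate block, TMM scaling, filterByExpr, Benjamini-Hochberg over all genes tested, threshold 0.05). Each time course was 1 fit of 32 libraries, without the 5 h libraries of replicate 3, scaled to genes stable by the study's CPM rule in all replicates at 3 or 5 h, without members (197 genes in the siRNA experiment, 82 in the medium experiment). Those genes were chosen with all 36 libraries of an experiment and held 4.07% and 2.51% of counts. A choice without the 5 h libraries of replicate 3 and pQ TCHX 0 h replicate 3 gave 113 and 76 genes. These held 3.37% and 0.25% of counts. The TDD index was fitted by lm. Alternatives used DESeq2 1.42.0, other scales, filters and samples. On simulated counts the 0 h fits recovered 29.5% (siRNA experiment, 12347 genes tested) and 31% (medium experiment, 12384 genes tested) of 1.5-fold changes, and 98% and 96.5% of 2-fold changes (12319 and 12381 genes tested). The simulated spread was 1 fixed setting for all genes and was not fitted to the data. These shares therefore do not give the power of the real fits. Named members were, at 0 h, the 5 largest rises and falls past the threshold with at least 50 counts, at 3 h the 3 smallest p in each direction and the 3 lowest and highest in the T arm, and a set list (RPL5, RPL11, the stalk, RPS27A, FAU, RPL3, RPL10A, RPL12, RPSA). Others, such as RPS20 at 3 h and the late members, were chosen after their values were seen. Start windows came from RefSeq (GRCh38.p14) and coding sequences from GENCODE.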

Additional observations from a re-analysis of the deposited data

How the results depend on the processing

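Of the 159 values of named members, 44 kept direction and side of the threshold under every alternative run. Values in fours below stand for siCTU2, siGL2, mQ and pQ.

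TMM scaling turned the T arm. At 3 h the medians were 0.19, 0.24, 0.35 and 0.22, with 29, 38, 56 and 29 members higher and 1, 0, 1 and 0 lower, and at 5 h 0.42, 0.51, 0.61 and 0.45, with 64, 69, 64 and 66 higher and 0 lower. Cycloheximide then gave 31, 13, 44 and 8 members lower at 3 h and 52, 15, 49 and 14 at 5 h. For the 5 h counts no share of all genes is given here, so they are not read further. TMM scaling shifted all genes together, and with this 1 shift 54 values of named members at 3 h passed 0. In siCTU2 these were RPS12 0.076, RPL26 0.10, RPL5 0.16, RPL11 0.17, RPLP0 0.22, RPLP1 0.35, RPLP2 0.29, RPS27A 0.032, FAU 0.29, RPL3 0.016, RPL10A 0.13, RPL12 0.27 and RPSA 0.14. In siGL2 they were RPS12 0.056, RPL13A 0.12, RPL32 0.21, RPL34 0.072, RPL5 0.24, RPL11 0.26, RPLP0 0.24, RPLP1 0.31, RPLP2 0.25, RPS27A 0.12, FAU 0.27, RPL3 0.18, RPL10A 0.22 and RPL12 0.25. In mQ they were RPL27A 0.086, RPL8 0.14, RPS4X 0.077, RPL5 0.39, RPL11 0.33, RPLP0 0.33, RPLP1 0.35, RPLP2 0.32, RPS27A 0.19, FAU 0.35 and RPL12 0.24. In pQ they included RPLP0 0.19, RPL15 0.20, RPL34 0.025, RPL3 0.075, RPL4 0.086, RPL27A 0.44, RPL5 0.21, RPL11 0.26, RPLP1 0.32, RPLP2 0.30, RPS27A 0.20, FAU 0.30, RPL10A 0.20, RPL12 0.28 and RPSA 0.17.

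The TCHX arm at 0 h gave 7 members higher and 12 lower in siCTU2 (RPSA at -0.12, a change of sign) and 0 higher and 1 lower in mQ, or 5 higher without pQ replicate 3. All 36 libraries in a fit gave 5, 1, 33 and 36 lower in the T arm at 3 h. At 5 h that fit gave 0 in either direction in siGL2, 11 lower in mQ and 2 lower in pQ. With cycloheximide it gave 0 lower at 3 h in pQ and 0 lower at 5 h in siCTU2 (median 0.0071), siGL2 and mQ.

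Without a filter on low counts 10 members were lower in mQ at 0 h, 1 was higher in mQ at 3 h, and with cycloheximide 1 was lower in siGL2, 1 higher and 1 lower in mQ and 0 lower in pQ. The T arm change then differed for 1 (siRNA experiment) and 5 (medium experiment) members and the cycloheximide effect for 2 in the medium experiment. A scale from genes stable at both times gave 1 member with another T arm change in mQ than in pQ. The call of 1 member lower with cycloheximide in pQ was lost (0 lower) on that scale, with the 0 h difference subtracted, which gave 1 higher in mQ, and without the odd libraries. The cause of these changes was not tested.

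Leaving out 1 replicate gave 11 to 25 members higher and 3 to 5 lower in siCTU2 at 0 h, and 4 to 16 higher and 1 to 13 lower in mQ. In the T arm at 3 h it gave 36 to 62, 17 to 41, 38 to 57 and 46 to 69 lower, and 0 to 5 higher in mQ. With cycloheximide it gave 0 to 1 lower in mQ and 0 to 0 in pQ, and the T arm change in the medium experiment differed for 0 to 6 members. Without mQ T 0 h replicate 2, 14 were lower in mQ at 5 h, and without siCTU2 TCHX 5 h replicate 2, 0 were lower with cycloheximide.

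Samples with the same replicate number correlated by -0.09 to 0.19, so the fits above have no block, apart from the TDD index. The stable-gene rule and the changes from a library's own 0 h library did match libraries by number. Those changes are a description. A replicate block gave 27 members higher and 6 lower in siCTU2 and 9 and 4 in mQ at 0 h, 68, 65, 56 and 71 lower at 3 h in the T arm, and 1 (siGL2) and 3 (pQ) lower with cycloheximide. In the siRNA experiment each sample at 0 h correlated best with its own number, a hint from the data only.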

Other observations

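Other mRNAs with a TOP tract, those of translation factors and their partners, were read beside the members. At 0 h in siCTU2, 4 of 16 were higher and 1 lower, with PABPC1, the poly(A)-binding protein, at 0.45 ± 0.07 (adjusted p = 0.00011, edgeR) and HNRNPA1, a splicing factor, at -0.22 ± 0.06. In mQ 4 of 16 were higher, again with PABPC1 (0.50 ± 0.09). At 3 h in the T arm 14, 11, 9 and 14 of 16 were lower in siCTU2, siGL2, mQ and pQ, with medians of -0.44, -0.31, -0.39 and -0.54 on the stable-gene scale, and 0 were called with cycloheximide against without it in any condition.

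Near copies of ribosomal proteins outside the rule were also read. In siCTU2 at 0 h RPL7L1 (-1.08 ± 0.08) and RPL22L1 (-0.59 ± 0.06) were lower, and RPS27L (0.60 ± 0.10) and RPL36AL (0.39 ± 0.07) higher, of 6 tested. In mQ 3 of 6 were lower, led by RPL36AL (-0.66 ± 0.18) and RPL26L1 (-0.64 ± 0.14). The mRNAs of mitochondrial ribosomal proteins were called higher in 9 and lower in 17 of 72 in siCTU2, with a median of -0.09, and higher in 2 and lower in 23 of 72 in mQ, with a median of -0.22.

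The share of AAA, GAA and CAA codons was set beside the 0 h differences over 71 of the 72 tested members. Across members Spearman's rho was 0.22 in siCTU2 against siGL2 (Pearson's r 0.08) and -0.30 in mQ against pQ (Pearson's r -0.27), and over all genes 0.01 (10735 genes) and -0.09 (10789 genes). Genes are not independent replicates, all points of a comparison share the same 6 libraries, and the values are a description.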
